A study of Mus musculus with 4 samples.

Results

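The genes described here encode the enzymes that write and erase N6-methyladenosine (m6A) on mRNA. They are the 10 rows of the deposited expression table, of 55339 in all, whose gene symbol is Mettl3, Mettl14, Mettl16, Wtap, Virma, Rbm15, Rbm15b, Zc3h13, Alkbh5 or Fto. All 10 passed the filter on low values and were tested among 17303 genes. Polyadenylated RNA had been sequenced from leukemia cells of the bone marrow of C57BL/6 mice, with 2 libraries of the genotype WT (replicates 4 and 5) and 2 of the genotype YBX1-/- (replicates 1 and 3, titled cKO). The age of the mice, how the leukemia was started and which Cre line removed Ybx1 are not given in the sources used here. Since the labels do not tie the replicates to separate animals, p-values measure only the spread between these libraries, which may be technical. Each value is a normalized log2 expression value per gene, and the depth of each library is unknown because no counts were used. Fewer cells of a type and less RNA per cell cannot be told apart in such bulk samples.

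m6A is placed on nascent mRNA by a nuclear complex. Its core is METTL3, the catalytic subunit, paired with METTL14, which holds the RNA. WTAP, VIRMA, ZC3H13 and the RNA-binding proteins RBM15 and RBM15B form the accessory part, which brings the core to its targets. METTL16 works apart from this complex, on U6 snRNA and on hairpins of the Mat2a mRNA, and so ties methylation to the supply of the methyl donor S-adenosylmethionine. FTO and ALKBH5 are iron-dependent demethylases that remove the mark. In myeloid leukemia METTL3, METTL14, FTO and ALKBH5 have each been described as needed for leukemic growth. YBX1, the protein removed here, carries a cold-shock domain with which it holds RNA. The series title places its effect on mRNA stability in the context of m6A.

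The 3 methyltransferase genes differ in the short motif at the centre of the catalytic fold, and the codons for it are shown because they tell the active subunit from its partner. The stretches are coding sequence from GENCODE release M21 on GRCm38, written 5′ to 3′ in the sense of the mRNA. Capitals mark the codons of the motif, DPPW in METTL3, EPPL in METTL14 and NPPF in METTL16.
Mettl3, codons 395 to 398 of 580, chr14:52297569-52297604, minus strand: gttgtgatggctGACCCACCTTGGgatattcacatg
Mettl14, codons 192 to 195 of 456, chr3:123374793-123374828, minus strand: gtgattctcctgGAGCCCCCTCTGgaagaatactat
Mettl16, codons 184 to 187 of 593, chr11:74792271-74792306, plus strand: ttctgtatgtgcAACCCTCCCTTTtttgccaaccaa
Each motif occurred 1 time in its reading frame. The table gives 1 value per gene and cannot tell such parts of a transcript apart.

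Before the genes themselves, 1 library has to be described. WT replicate 4 correlated with the other 3 libraries at Pearson's r = 0.69 to 0.71 across the tested genes, against 0.93 to 0.96 among those 3. In it, 1554 genes (8.98% of those tested) lay more than 3 log2 above the highest of the other libraries, and 6073 (35.1%) lay below the lowest. Values from 4.5 to 6 took 33.2% of the tested genes in WT replicate 4, against 10.4% to 10.9% in the others. The 10 genes are therefore given against both WT libraries and against WT replicate 5 alone. The targeted gene Ybx1 was at 19.70 in WT replicate 4, 10.002 in WT replicate 5, and 7.29 and 8.33 in the knockout libraries, so it lay lower in both knockout libraries, as labelled. All 8 myeloid markers were tested, but so were 4 of 5 erythroid, 3 of 3 megakaryocyte and 3 of 7 stroma and endothelium markers. At least log2 5 was reached by 6 and 8 myeloid markers in WT replicates 4 and 5, and by 7 in each knockout library. Of the erythroid and T cell markers 0 reached it. Itga2b (megakaryocyte) reached it in WT replicate 5, and Pecam1 (stroma and endothelium) in all libraries. The T cell markers Cd3e, Cd3g, Cd4 and Cd8a were listed at 0 in all libraries, and Cd3d was at 0.54 to 2.59. Among B cell markers, Ms4a1 and Pax5 were below 0 in all libraries. Cd79a was at 4.12 and 0.68 in WT and -0.41 and 2.67 in knockout, and Cd79b, its partner in the B cell receptor, at 5.16 and 6.996 in WT and 7.41 and 7.18 in knockout. The part of those cells in the results was not tested.

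Among the 10 writers and erasers, the accessory genes Wtap, Rbm15 and Zc3h13 and the eraser gene Alkbh5 had each knockout value under each WT value, and the core gene Mettl14 had each above. None of these differences passed the test. By limma with Benjamini-Hochberg adjustment, 0 of the 10 were called, as were 0 of 17303 tested genes (0% in each direction). At an unadjusted p under 0.05 limma gave 0 of the 10 and 651 of all genes. The 4 lower and 1 higher of 10 stand beside 18.8% of all tested genes below and 17.3% above both WT libraries. Against WT replicate 5 alone, the knockout means of the 4 lower genes were 1.45-fold to 2.12-fold lower, and that of Mettl14 was 1.32-fold higher.

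**Figure D1:**
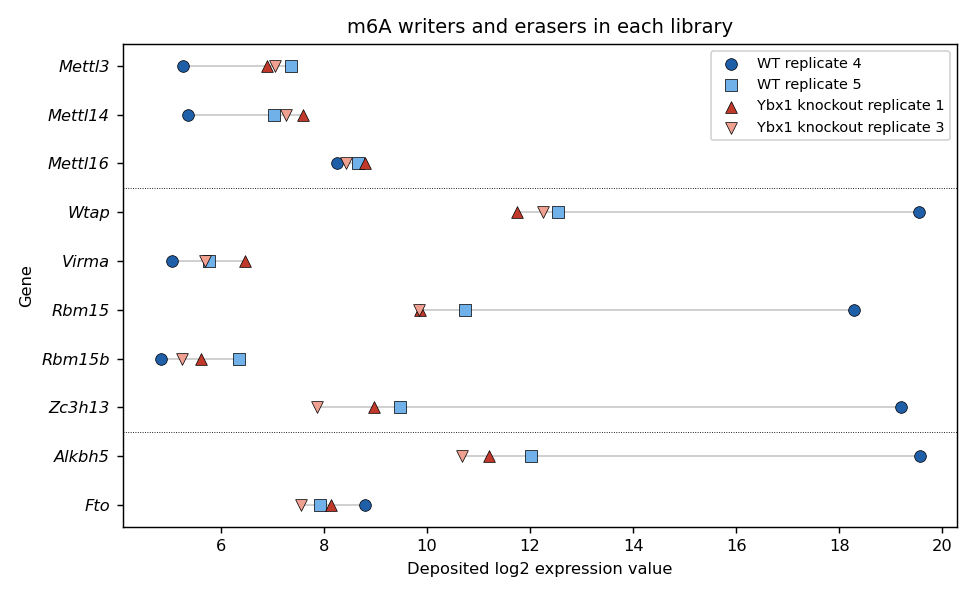
Deposited log2 expression value (horizontal axis) of the 10 genes (rows) in the 4 libraries, with core and METTL16, accessory subunits and erasers parted by dotted lines. Wtap, Rbm15, Zc3h13 and Alkbh5 lay at 18.29 to 19.55 in WT replicate 4, far from their own values in the other 3 libraries, and below WT replicate 5 in both knockout libraries.

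The core genes came first by role. Mettl3 (chromosome 14, 52294841 to 52305128, minus strand, GRCm38) encodes the catalytic subunit. It was at 5.28 in WT replicate 4 and 7.35 in WT replicate 5, and at 6.91 and 7.05 in the knockout libraries. Both knockout values thus lay between the WT values, and the groups overlapped. The limma difference, knockout minus WT, was 0.66 (SE 0.92, adjusted p = 0.859), and against WT replicate 5 alone it was -0.38 (SE 0.28, adjusted p = 0.684), so its sign rests on WT replicate 4. Mettl3 shares 933 of its 5076 exonic bases with Tox4 on the opposite strand, and whether the counting used strand is not given in the sources used here. Tox4 was at 7.64 and 9.39 in WT and 9.89 and 9.41 in knockout.

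Mettl14 (chromosome 3, 123368297 to 123386108, minus strand) encodes the RNA-binding partner of the core. Its values were 5.36 and 7.03 in WT replicates 4 and 5, and 7.59 and 7.26 in knockout replicates 1 and 3. The groups did not overlap, knockout being the higher, with a gap of 0.23 that was smaller than the difference within the knockout pair. The WT libraries averaged 6.20 ± 1.18 (SD, n = 2), and the knockout libraries averaged 7.43 ± 0.23 (SD, n = 2). By limma they differed by 1.23 (SE 0.83, adjusted p = 0.826), which missed the threshold. Without WT replicate 4 the difference shrank from 1.23 to 0.40 (SE 0.32).

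METTL3 and METTL14 act as a pair, and the log2 difference between their genes within a library is not moved by a constant shift of that library. The departure of WT replicate 4 was no constant shift, as some genes lay higher there and others lower. A difference within that library is therefore not free of it. Mettl14 minus Mettl3 was 0.09 in WT replicate 4 and -0.33 in WT replicate 5, against 0.68 and 0.22 in the knockout libraries. This within-library difference was higher in both knockout libraries, with a gap of less than the spread within either group. It carries no gene length and says nothing on which gene was the more abundant. The pair was looked at after the values had been seen, so no test is attached. Other pairs of these genes were computed too and are described with Fto.

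Mettl16 (chromosome 11, 74770830 to 74828525, plus strand), the separate methyltransferase, had the narrowest span of the 10 genes over the 4 libraries. It was at 8.26 and 8.67 in WT and at 8.80 and 8.43 in knockout. The groups overlapped, and WT replicate 4 stood only 0.41 below WT replicate 5. By limma the groups differed by 0.15 (SE 0.72, adjusted p = 0.953), and without WT replicate 4 by -0.053 (SE 0.29). The methyl donor gene Mat2a, whose mRNA METTL16 methylates, was at 9.93 and 10.70 in WT and 10.79 and 10.54 in knockout, also overlapping.

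Of the 5 accessory genes, 3 were lower in knockout with no overlap of the groups, and 0 were higher, beside 18.8% and 17.3% of all tested genes. All 3 were among the genes far higher in WT replicate 4, of which 34.1% have both knockout values under WT replicate 5. Wtap (chromosome 17, 12966796 to 12994169, minus strand) encodes the adaptor that holds the core in nuclear speckles. It was at 19.55 in WT replicate 4, 12.53 in WT replicate 5, and 11.74 and 12.25 in knockout replicates 1 and 3. The knockout values were the lower ones, but the gap of 0.28 was smaller than the distance between the knockout libraries. The limma difference was -4.05 (SE 4.84, adjusted p = 0.838), and -0.54 (SE 0.34, adjusted p = 0.641) without WT replicate 4. The annotation holds 4 other genes with stretches of at least 200 bases that match Wtap at 94.7% to 99.3% identity. Of these, Gm14292 had values of 0.66 to 1.63 and the other 3 were listed at 0.

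Rbm15 (chromosome 3, 107325421 to 107333673, minus strand), an RNA-binding subunit that takes the complex to its targets, showed the closest knockout pair. It was at 18.29 in WT replicate 4 and 10.75 in WT replicate 5, against 9.86 and 9.84 in the knockout libraries, without overlap. The gap to WT replicate 5 was 0.88. It was wider than the SD of 0.016 within the knockout pair, but narrower than the SD of 5.34 within the WT pair. The limma difference of -4.67 (SE 3.12) had an adjusted p of 0.826. Without WT replicate 4 it was -0.89 (SE 0.18), with an adjusted p of 0.474. That fit has 1 WT library, so its small SE comes from the close knockout pair.

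Zc3h13 (chromosome 14, 75284373 to 75344426, plus strand), a zinc finger subunit that keeps the complex in the nucleus, had the widest range. It was at 19.20 in WT replicate 4 and 9.48 in WT replicate 5, and at 8.97 and 7.87 in the knockout libraries. The knockout values were again the lower ones, while the knockout libraries themselves were 1.10 apart. Limma gave a difference of -5.92 (SE 3.50, adjusted p = 0.826), and -1.07 (SE 0.64, adjusted p = 0.630) without WT replicate 4.

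The remaining accessory genes overlapped between the groups. Rbm15b (chromosome 9, 106880918 to 106887428, minus strand), the paralog of Rbm15, was at 4.83 and 6.36 in WT and at 5.61 and 5.25 in knockout. Both knockout values were below WT replicate 5 and above WT replicate 4. Its limma difference was -0.17 (SE 0.84, adjusted p = 0.955), and -0.93 (SE 0.45, adjusted p = 0.574) without WT replicate 4, a size close to that of Rbm15 in the same libraries. Rbm15b shares 75 exonic bases with Dcaf1 and 14 with Manf, of 6511.

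Virma (chromosome 4, 11485958 to 11550684, plus strand), the large scaffold of the accessory part, was at 5.06 and 5.78 in WT and at 6.47 and 5.70 in knockout. Knockout replicate 1 was the highest library and knockout replicate 3 lay between the WT values. Limma gave a difference of 0.66 (SE 0.73, adjusted p = 0.831), and 0.31 (SE 0.57, adjusted p = 0.819) without WT replicate 4. So Virma and Wtap, 2 subunits of the same complex, had differences of opposite sign in both fits, and neither passed with all 4 libraries. After quantile normalization both differences were positive, at 0.30 for Virma and 0.23 for Wtap.

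The erasers differed from each other. Alkbh5 (chromosome 11, 60536381 to 60558512, plus strand), a nuclear demethylase, was at 19.55 in WT replicate 4, 12.03 in WT replicate 5, and 11.20 and 10.68 in knockout. Each knockout value was under each WT value, with a gap of 0.83 to WT replicate 5 against 0.52 within the knockout pair. The limma difference was -4.85 (SE 4.0, adjusted p = 0.826). Without WT replicate 4 it was -1.08 (SE 0.34), a 2.12-fold lower level, with an unadjusted limma p of 0.0643 and an adjusted p of 0.494.

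Fto (chromosome 8, 91313525 to 91668439, plus strand), the other demethylase, was at 8.80 and 7.92 in WT replicates 4 and 5 and at 8.13 and 7.56 in knockout. The groups overlapped, with knockout replicate 1 above and knockout replicate 3 below WT replicate 5. The limma difference was -0.51 (SE 0.75, adjusted p = 0.861), and -0.07 (SE 0.39, adjusted p = 0.945) without WT replicate 4. Within each library, Alkbh5 minus Fto was 10.76 and 4.11 in WT and 3.07 and 3.12 in knockout, lower in both knockout libraries. That pair was also looked at after the values had been seen, and the values carry no gene length. Other pairs among the writer genes were computed as well. The groups overlapped for Zc3h13 minus Wtap and for Rbm15b minus Rbm15. Rbm15 minus Wtap lay lower in both knockout libraries, and Virma minus Wtap lay higher in both. No share over other gene pairs was computed, so such separation is not a result about the pairs. Of its 13031 exonic bases, Fto shares 304 with Gm45427 and 144 with 4831440D22Rik, both on the opposite strand.

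**Figure D2:**
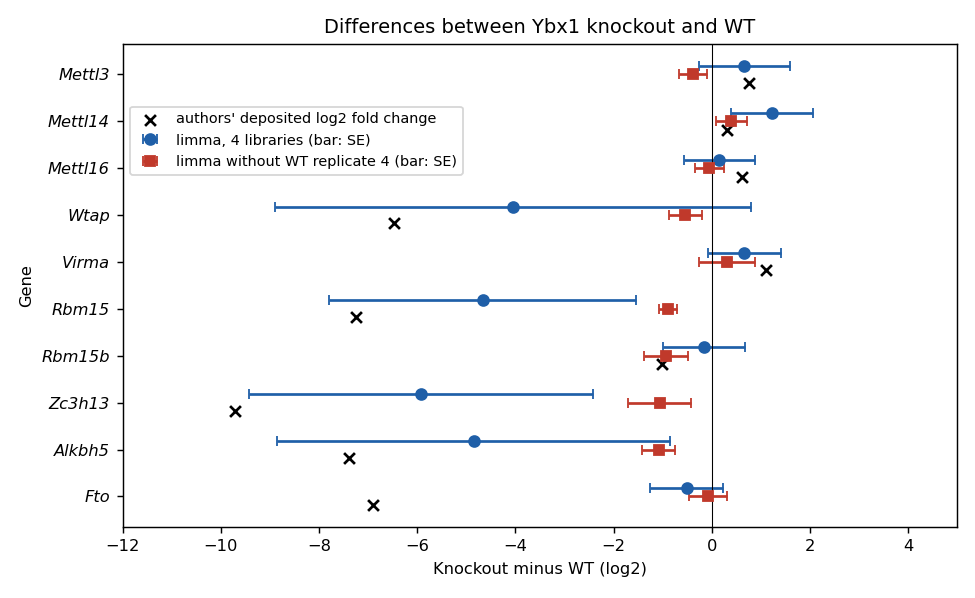
Knockout minus WT on the log2 scale (horizontal axis) for the 10 genes (rows), from limma on 4 libraries and on the 3 without WT replicate 4, with bars of 1 SE, and the fold change listed in the authors' deposited table. For Wtap, Rbm15, Zc3h13 and Alkbh5 the differences of -5.92 to -4.05 shrank to -1.08 to -0.54 without WT replicate 4.

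The size of these differences followed WT replicate 4. In that library 4 of the 10 genes lay more than 3 log2 above the other 3 libraries, and they are the same 4 that were lower in both knockout libraries. Wtap, Rbm15, Zc3h13 and Alkbh5 were 7.02, 7.55, 9.71 and 7.53 above WT replicate 5 there. Mettl3, Mettl14, Mettl16, Virma and Rbm15b were lower in WT replicate 4 than in the other 3 libraries, and their difference from WT replicate 5 ran from -2.08 to -0.41. For a gene that lies so high in WT replicate 4, being below both WT libraries asks only that it lie below WT replicate 5. Of the 1554 tested genes of that kind, 34.1% had both knockout values below WT replicate 5, as all 4 of these genes did. Of the genes that were lowest in WT replicate 4, 39.7% had both knockout values above WT replicate 5, as 1 of the 5 named did (Mettl14).

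Relative to WT replicate 5 alone, 6 of the 10 genes had both knockout values lower (Mettl3, Wtap, Rbm15, Rbm15b, Zc3h13 and Alkbh5), 1 had both higher (Mettl14) and 3 lay on both sides. Over all tested genes 33.4% lay lower, 41.8% higher and 24.7% on both sides. The knockout mean was at least 0.5 log2 below WT replicate 5 for 5 of the 10 genes (Wtap, Rbm15, Rbm15b, Zc3h13 and Alkbh5), beside 25.1% of all tested genes. This cut-off was not among the planned settings, and Wtap met it narrowly, at -0.54. Over all tested genes only the lower direction was counted. The median difference of the 10 genes from WT replicate 5 was -0.46, against 0.07 over all tested genes. By role, 4 of the 5 accessory genes were below WT replicate 5 in both knockout libraries, 1 of the 2 erasers, and 1 of the 3 core and METTL16 genes. With 1 WT library left, the limma fit takes the spread from the knockout pair and assumes that the WT library varies like it.

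**Figure D3:**
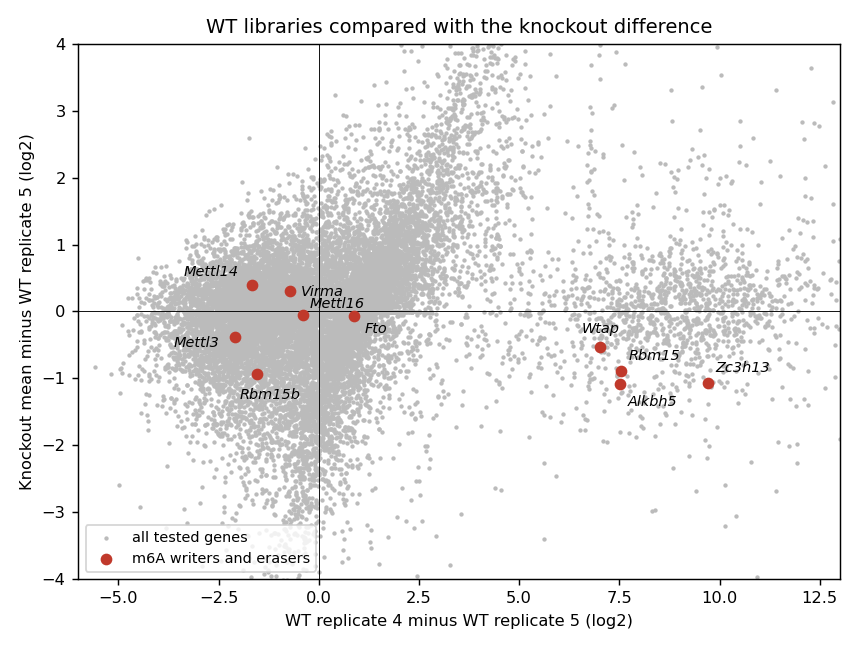
WT replicate 4 minus WT replicate 5 (horizontal axis, log2) against the knockout mean minus WT replicate 5 (vertical axis, log2) for all tested genes (grey) and the 10 genes (red), with 291 tested genes outside the axes. Wtap, Rbm15, Zc3h13 and Alkbh5 sit at 7.02 to 9.71 on the horizontal axis and below 0 on the vertical one, while the other 6 lie between -2.08 and 0.88 on the horizontal axis.

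The position of a gene within its own library does not depend on how far WT replicate 4 is stretched. Each value was therefore turned into its percentile among the tested genes of that library, which is what quantile normalization keeps. A percentile in WT replicate 4 still rests on which genes stood high there, so this scale is not independent of that library. Rbm15 was at 95.6 and 96.3 in WT and at 91.7 in both knockout libraries, and Zc3h13 at 96.8 and 89.2 against 84.5 and 74.5. Both genes thus lay lower in the knockout libraries on this scale as well, beside 12.5% of all tested genes. Mettl14 was at the 61.9 and 64.7 percentile in WT against 69.9 and 68.1 in knockout, and Virma at 52.6 and 53.0 against 58.3 and 53.4, higher in both, beside 23.5% of all tested genes.

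Wtap and Alkbh5 did not keep apart by percentile. Wtap was at 97.3 and 99.3 in WT and 98.6 and 99.0 in knockout, and Alkbh5 at 97.3 and 98.8 against 97.6 and 96.1. In both genes each knockout percentile was still below WT replicate 5, and the overlap came from WT replicate 4, which lay under knockout replicate 1. On quantile-normalized values limma put Wtap at a difference of 0.23 and Alkbh5 at -0.60, while Rbm15 and Zc3h13 were at -2.65 and -3.02. Limma called none of the 4 on that scale, with adjusted p-values of 0.845 to 0.963.

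**Figure D4:**
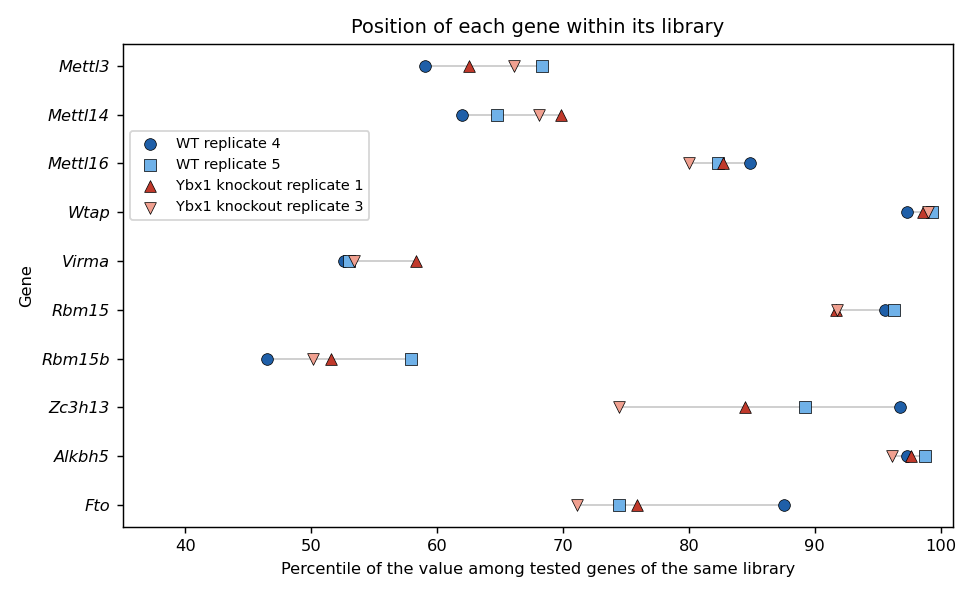
Percentile of each gene's value among the tested genes of the same library (horizontal axis), by gene (rows) and library (symbols). Rbm15 and Zc3h13 have both knockout symbols left of both WT symbols, and Wtap and Alkbh5 do not.

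The number after RNA-seq in the titles is 2 for knockout replicate 3 and 1 for the other libraries, and the labels do not say what it marks. Within number 1, which leaves 1 knockout library, Wtap, Rbm15, Zc3h13 and Alkbh5 differed from WT by -4.30, -4.65, -5.37 and -4.59. Mettl14 differed by 1.39 there. With 1 knockout library the spread comes from the WT pair alone, so these are given as values without a test.

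The authors' deposited table gives its own fold change and p-values, headed as WT against knockout. Over 17185 tested genes that fold change correlated with the difference between the sample columns, knockout minus WT, at Pearson's r = 0.78. This is across genes, which are not independent, and by its sign the fold is taken as knockout over WT. Of the 10 genes, the authors' deposited table calls 2 lower at an adjusted p under 0.05, Alkbh5 at a log2 fold change of -7.39 (adjusted p = 0.00328) and Wtap at -6.46 (adjusted p = 0.00816), and 0 higher. The authors' deposited table calls 3.96% of the tested genes lower and 0.157% higher. Both fold changes are closer to the difference from WT replicate 4 than to that from WT replicate 5.

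For 4 of the 10 genes the authors' deposited table lists a fold change with a p-value of exactly 1. Rbm15 is listed there at -7.25, Zc3h13 at -9.72, Fto at -6.91 and Mettl3 at 0.75. Such an entry was found for 9.01% of the tested genes with a fold change and for 46.3% of those more than 3 log2 above the other libraries in WT replicate 4, by the authors' deposited table. The -6.91 for Fto in the authors' deposited table stands far from the -0.51 of its sample values, which overlap between the groups. Mettl14, Mettl16, Virma and Rbm15b are at 0.31, 0.61, 1.10 and -1.01 in the authors' deposited table, each with an adjusted p of at least 0.722.

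The rest of the m6A pathway was read from 33 other genes in 5 lists, all of them tested. Limma called 0 of the 33, and put 0 under an unadjusted 0.05. The groups did not overlap in 14, with knockout lower in 5 and higher in 9 (18.8% and 17.3% of all tested genes), and the median difference was 0.75, against -0.09 over all tested genes. Relative to WT replicate 5 alone, 15 lay lower and 11 higher, with a median of -0.03, beside 33.4% lower and 41.8% higher of all tested genes. So the median of these genes moved with WT replicate 4, in which 26 of the 33 were below the other 3 libraries, as were 35.1% of all tested genes.

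The YTH proteins read the mark directly. Of 5, the groups of 2 did not overlap, both higher in knockout, beside 17.3% of all tested genes. All 5 were lowest in WT replicate 4, and of such genes 39.7% have both knockout values above WT replicate 5. Ythdf3, a cytoplasmic reader, was at 5.50 and 6.53 in WT and 7.92 and 7.69 in knockout. Ythdc1, the nuclear reader, was at 5.49 and 6.38 in WT and 7.12 and 7.36 in knockout. Their limma differences of 1.79 (SE 0.71) and 1.30 (SE 0.69) had an adjusted p of 0.826 each. Without WT replicate 4 they were 1.28 (adjusted p = 0.477) and 0.86 (adjusted p = 0.519). By percentile Ythdf3 kept its groups apart, but those of Ythdc1 overlapped, at 65.8 and 58.1 in WT and 64.7 and 69.0 in knockout. The authors' deposited table lists Ythdf3 at 1.51 (adjusted p = 0.409) and Ythdc1 in the opposite direction, at -5.13 with a p-value of exactly 1.

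Among 10 other proposed readers, 4 lay lower and 2 higher in both knockout libraries, beside 18.8% and 17.3% of all tested genes. Igf2bp1, an mRNA-stabilising reader, was at 16.83 and 5.37 in WT and 4.07 and 2.75 in knockout. Prrc2a was at 18.73 and 8.64 against 8.10 and 6.91. Fmr1, which encodes the fragile X protein FMRP, was at 9.89 and 7.20 against 6.86 and 6.56. Hnrnpa2b1, a nuclear RNA-binding protein gene, was at 12.76 and 12.57 against 12.34 in both. All 4 lay lower in knockout than in either WT library, Hnrnpa2b1 with the opposite sign (1.76) after quantile normalization, and Igf2bp1 and Prrc2a were more than 3 log2 above the other libraries in WT replicate 4, as Wtap and its group were. From WT replicate 5 the knockout means of Igf2bp1, Prrc2a, Fmr1 and Hnrnpa2b1 differed by -1.96, -1.13, -0.49 and -0.23.

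Of 6 other RNA methyltransferases and partners, 1 lay lower and 1 higher in both knockout libraries, beside 18.8% and 17.3% of all tested genes. Trmt112, an activator of several methyltransferases, was lower, at 18.63 and 9.45 in WT and 9.35 and 9.19 in knockout. Mettl5, the 18S rRNA m6A enzyme that TRMT112 stabilises, was higher, at 5.48 and 7.50 in WT and 7.60 and 7.57 in knockout. Trmt112 was more than 3 log2 above the other libraries in WT replicate 4, and Mettl5 was lowest there. Against WT replicate 5 both differences were small, at -0.18 and 0.09. Cbll1, an E3 ligase found with the accessory subunits, was at 7.47 and 8.01 in WT and 8.19 and 7.84 in knockout, overlapping.

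Methyl donor genes overlapped between the groups in 5 of 5, while 18.8% of all tested genes lay lower and 17.3% higher without overlap. The 2 with the smallest limma p were Mat2b, a regulatory subunit of S-adenosylmethionine synthase, and Ahcy, which clears the product of methylation. Mat2b was at 5.91 and 9.85 in WT and 9.82 and 9.999 in knockout, and Ahcy at 5.29 and 7.81 against 7.48 and 7.58. In both genes WT replicate 4 alone was low, and from WT replicate 5 the knockout means differed by 0.062 and -0.28.

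Of 7 other AlkB homologs, relatives of ALKBH5 with other substrates, 4 lay higher in both knockout libraries and 0 lower, beside 17.3% and 18.8% of all tested genes. All 7 were lowest in WT replicate 4, where 39.7% of such genes have both knockout values above WT replicate 5. Alkbh2 was at 5.02 and 5.25 in WT and 6.08 and 5.91 in knockout, and Alkbh3, like it a DNA repair demethylase, at 7.27 and 7.57 against 7.94 and 7.97. Alkbh7 was at 5.22 and 6.21 against 6.51 and 6.60, and Alkbh6 at 5.53 and 8.22 against 8.23 and 8.51. From WT replicate 5 the knockout means of these 4 differed by 0.74, 0.39, 0.35 and 0.14, while the other 3 homologs (Alkbh1, Alkbh4 and Alkbh8) had both knockout values below WT replicate 5, as Alkbh5 did. By percentile the groups of Alkbh3 and Alkbh6 overlapped, and limma called none of the 7.

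**Figure D5:**
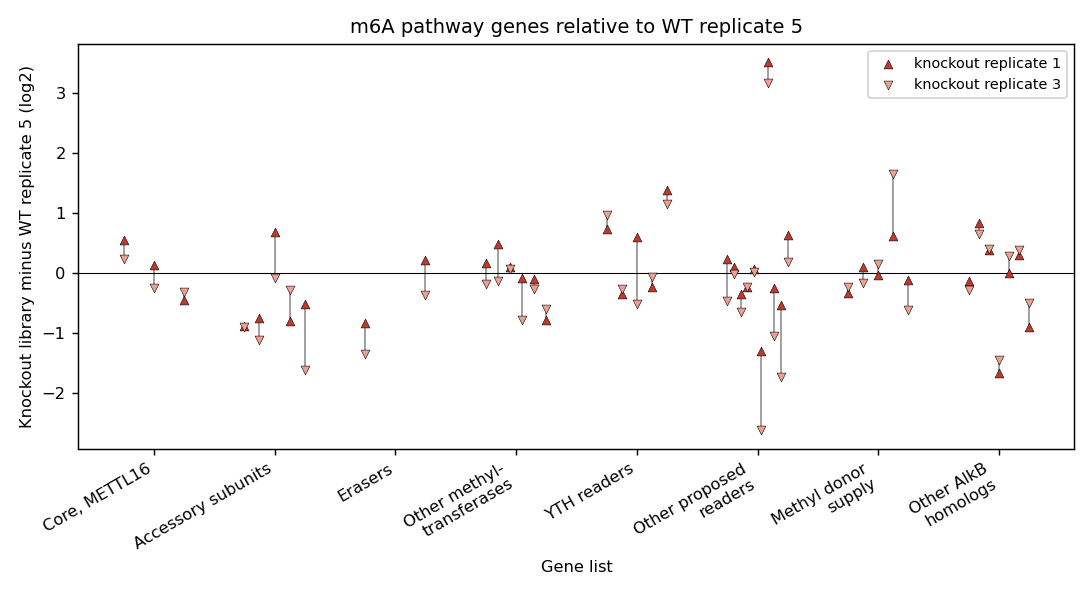
Each knockout library minus WT replicate 5 (vertical axis, log2) for the 10 genes in the 3 lists on the left and the 33 other pathway genes in the 5 lists on the right, with a line joining the 2 knockout libraries of a gene. Both symbols lie below 0 for 4 of 5 accessory genes, and the highest pair belongs to Igf2bp2, whose values were 3.71 and 0.03 in WT replicates 4 and 5 and 3.55 and 3.20 in the knockout libraries.

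YBX1 takes its name from the Y box, an inverted CCAAT box in DNA to which it was found to bind. RefSeq windows of 250 bases before the start (GRCm38.p6) were at hand for 8 of the 10 genes, all but Mettl14 and Virma. The motif searched was CCAAT on either strand (ATTGG on the other), and 33.8% of 32851 windows of that length hold it. It was found in 3 of the 4 genes that lay lower, 2 times in Rbm15 and 1 time each in Wtap and Alkbh5, and 0 times in Zc3h13. Among the others it was found 1 time in Mettl16 and 0 times in Mettl3, Rbm15b and Fto. A match is a description of the letters only. The windows of Wtap, Rbm15, Mettl16, Mettl3 and Rbm15b overlap annotated exons. The windows of Alkbh5, whose RefSeq start lies inside the longer GENCODE gene, and of Zc3h13, which are free of annotated exons, are shown as the pair with and without it, with CCAAT in capitals.
Alkbh5, chr11:60537433-60537682, plus strand: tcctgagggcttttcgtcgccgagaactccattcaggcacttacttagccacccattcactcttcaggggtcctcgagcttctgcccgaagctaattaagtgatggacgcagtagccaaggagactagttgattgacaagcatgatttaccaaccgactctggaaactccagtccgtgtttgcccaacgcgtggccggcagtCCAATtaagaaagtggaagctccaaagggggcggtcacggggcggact
Zc3h13, chr14:75284116-75284365, plus strand: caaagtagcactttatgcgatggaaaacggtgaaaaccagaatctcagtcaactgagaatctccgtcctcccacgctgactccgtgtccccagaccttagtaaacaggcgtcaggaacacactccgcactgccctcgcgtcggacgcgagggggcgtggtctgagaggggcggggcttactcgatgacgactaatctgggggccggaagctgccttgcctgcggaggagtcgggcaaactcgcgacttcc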

How the data were processed

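Leukemia cells from mouse bone marrow were profiled by RNA-seq of polyadenylated RNA, 2 libraries per genotype. The authors deposited 1 table of log2 expression values per gene and library. It also holds the authors' own comparison for each gene, a log2 fold change with raw and adjusted p-values. GRCm38, featureCounts, HISAT2 2.1.0, CASAVA and DESeq2 are named, without role or order, per the submitters' processing notes, and the normalization is not given in the sources used here. In 30280 rows all 4 values are 0.

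Genes with a log2 value of at least 0, and not exactly 0, in at least 2 libraries were fitted in R 4.3.3 with limma 3.58.1 and a mean-variance trend, taking the deposited log2 values unscaled, with a threshold of 0.05 on Benjamini-Hochberg adjusted p-values over all 17303 tested genes. The steps were checked on simulated data with normal noise of the same SD in each library. No simulated library stood apart as WT replicate 4 does, so that check does not cover such a library. The members and lists were chosen with earlier results of these data known. Named without regard to their values were the 10 genes and Ybx1. From each other list up to 4 genes with the widest gap between groups that do not overlap were named, or the 2 with the smallest p. Alternatives left out each library, changed the filter, the scaling or a pseudocount (1 or 0.1), or dropped the trend. Gene positions and exons come from GENCODE release M21 (GRCm38), promoter windows from RefSeq.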

Additional observations from a re-analysis of the deposited data

How the results depend on the processing

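The values rest on 2 libraries per group, and depth is unknown. Leaving out 1 library at a time, limma called 0 to 4960 of all tested genes, 0 to 4 of the 10 genes and 0 to 15 of the 33 other pathway genes. The highest counts came without WT replicate 5, which leaves WT replicate 4 as the only WT library. The 4 were Alkbh5, Rbm15, Wtap and Zc3h13, which stood more than 3 log2 above the other libraries in WT replicate 4. Such calls rest on that library and are not a result about the 10 genes. The count over all genes was 26 without knockout replicate 1 and 88 without knockout replicate 3, and 0 of the 10 passed in either. The number of the 10 whose groups do not overlap ranged from 6 to 10 in these fits, against 5 with all libraries and 4 after quantile normalization. With 1 library left in a group such separation is common, since without WT replicate 4 it holds for 33.4% of all tested genes lower and 41.8% higher. For the other leave-one-out fits no share over all tested genes was computed, so their counts are not a result about the 10 genes. The difference of Ybx1 ranged from -11.89 to -2.19, and passed only without WT replicate 5. Leave-one-out differences ranged from -0.38 to 1.70 for Mettl3, from -0.053 to 0.35 for Mettl16, from -0.93 to 0.60 for Rbm15b and from -0.28 to 2.24 for Ahcy, and so changed sign. Quantile normalization reversed Wtap (0.23), Mettl16 (-0.26) and Hnrnpa2b1 (1.76). With WT replicate 4 left out as well, it reversed Mettl3 (-0.38), Mettl16 (-0.085) and Ahcy (-0.30). The cause was not tested. The filters, centring, both pseudocounts and limma without the trend changed no direction or call of the 10 genes. No paired analysis was possible because the groups share no replicate number.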

Other observations

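For the 5 genes whose groups do not overlap, the tested gene outside the pathway lists with the nearest profile was taken, by the Euclidean distance over the 4 libraries between log2 values centred on each gene's own mean. With 4 libraries, of which WT replicate 4 sets most of the distance, this is a description only. Mak16, a ribosome assembly gene, lay nearest to Mettl14 (distance 0.06), with values of 5.33 and 6.96 in WT and 7.54 and 7.15 in knockout. Emp3 lay nearest to Wtap (0.14), Zc3hav1, which encodes the antiviral zinc finger protein ZAP, to Rbm15 (0.09), Wasf2, a regulator of actin assembly, to Zc3h13 (0.33), and Cemip2 to Alkbh5 (0.21). Zc3hav1 was at 19.98 and 12.54 in WT and 11.62 and 11.53 in knockout.

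Of the 33 other pathway genes, 3 are named here because of their unadjusted limma p without WT replicate 4, in a fit with 1 WT library. None passed adjustment. The share of the 33 picked in this way is below that over all tested genes, so it is not a result about them. Ythdf3 and Igf2bp2 lay above WT replicate 5 in both knockout libraries, by 1.28 and 3.34 on average (adjusted p = 0.477 and 0.474), and Alkbh4 lay below it by a mean of -1.55 (adjusted p = 0.474). With WT replicate 4 included, Igf2bp2 and Alkbh4 overlapped between the groups.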
